A study of Mus musculus with 4 samples.

Results

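The 35 mouse genes described here are the FGF ligands, their receptors and klotho co-receptors, the FGF-binding proteins and the feedback genes of the FGF pathway: 20 ligands, 7 genes of the receptor and klotho group, 2 binding proteins and 6 feedback genes. They were chosen by gene name and make up 35 of the genes of a series in which 28883 genes had at least 1 listed region. CpG methylation was read by bisulfite sequencing in C3H10T1/2, a mouse cell line used as mesenchymal stem cells (MSCs). The cells received NC (non-targeting) siRNA or DNMT1 siRNA (siDNMT1) for 48 h. They were then left uninduced or induced for osteoblast (OB) differentiation for 3 days in medium with L-ascorbic acid (50 µM), β-glycerophosphate (10 mM), dexamethasone and penicillin-streptomycin. The groups are therefore NC uninduced, siDNMT1 uninduced, NC OB and siDNMT1 OB, with 1 library each, so that a difference between conditions cannot be told apart from a difference between cultures or libraries, and no test was possible.

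FGF ligands bind receptor tyrosine kinases on the cell surface, with heparan sulphate or a klotho protein as a partner, and the receptors signal largely through RAS and MAP kinases. Sprouty and Spred proteins and the phosphatase Dusp6 are switched on by the pathway and dampen it. In the skeleton, FGF signals act on the growth of cartilage and on osteoblasts, and bone itself releases the hormone Fgf23. DNMT1 is the enzyme that copies CpG methylation to the new strand when DNA is replicated, and CpG-dense gene starts are usually kept free of methylation.

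Each value is a methylation level, the fraction of methylated CpG cytosines in a region, from 0 to 1. A gene can have an entry for its promoter (2 kb upstream of the start), 5′ UTR, exons, introns and 3′ UTR, with a single level for all of its exons or introns. Unless said otherwise, the 4 levels of an entry are given in the order NC uninduced, siDNMT1 uninduced, NC OB and siDNMT1 OB. A level was counted as risen or fallen from a difference of 0.1. The fractions came without read counts, so their depth is unknown and no interval is given. A large difference at an entry may rest on few reads. Levels such as 0.05 at the Fgf1 promoter, 0.6 at its 5′ UTR and 0.5625 at the Dusp6 3′ UTR are ratios that small counts can give. So are 0.190476 at the Fgf17 promoter and 0.307692 at the Fgf14 5′ UTR, both in NC uninduced. Whether small counts gave these levels was not tested. Of the 35 genes, 34 had an entry and only Fgfbp1, a protein that frees FGFs from the matrix, had none. They held 135 entries, of which 131 had a level in every library: 29 promoters, 29 5′ UTRs, 34 exon entries, 27 intron entries and 12 3′ UTRs.

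The 4 libraries listed between 77193 and 78205 gene entries, the fewest in siDNMT1 OB. The median promoter level over 20152 promoters was 0.191, 0.188, 0.174 and 0.164, and the median intron level was 0.424, 0.418, 0.417 and 0.4003. The promoters of cell type markers were at 0.1002 to 0.799 for 5 of 6 mesenchymal genes, at 0.0149 to 0.380 for 3 of 5 osteoblast genes and at 0.612 to 0.756 for 2 of 4 genes of other cell types. Methylation does not identify cells, and without RNA in these data the knockdown of Dnmt1 was not checked.

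The sequences below come from genes whose promoter entries had low, high and intermediate levels, with each CG dinucleotide, the unit that was measured, in capitals. A promoter level is that of the whole entry and not of the printed bases alone. CG reads the same on both strands. The sequences lie upstream of the RefSeq start on GRCm38 and are written 5′ to 3′ on the strand of the gene. RefSeq promoter windows were at hand for 28 of the 35 genes. Of 32851 such windows, 92.1% held a CG in their 250 upstream bases, with a median of 6.

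The feedback genes Spry2 (chr14:105896820-105897069, minus strand) and Dusp6 (chr10:99262981-99263230, plus strand) are shown because their promoters were nearly free of methylation. They held 23 and 16 CG, numbers reached by 13.3% and 25.4% of windows.
Spry2: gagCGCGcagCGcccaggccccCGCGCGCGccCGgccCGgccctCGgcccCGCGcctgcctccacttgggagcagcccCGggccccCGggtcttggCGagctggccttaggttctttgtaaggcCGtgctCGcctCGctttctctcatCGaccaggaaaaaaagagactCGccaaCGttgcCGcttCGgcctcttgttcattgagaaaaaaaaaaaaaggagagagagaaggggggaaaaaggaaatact
Dusp6: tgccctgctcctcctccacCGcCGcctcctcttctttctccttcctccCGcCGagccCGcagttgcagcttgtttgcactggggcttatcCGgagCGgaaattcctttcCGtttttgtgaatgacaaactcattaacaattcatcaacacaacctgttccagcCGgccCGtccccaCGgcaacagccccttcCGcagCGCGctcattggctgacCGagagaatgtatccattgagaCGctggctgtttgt

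Spred2 (chr11:19924192-19924374, plus strand) and Fgf23 (chr6:127072652-127072901, plus strand) had the highest promoter levels of the group. The Spred2 stretch held 6 CG in 183 bases and ends where the first GENCODE exon begins, and the Fgf23 window held 6 in 250. The CpG island that follows the Spred2 stretch, at chr11:19924380-19925902, was nearly free of methylation, at 0.0168, 0.0173, 0.0123 and 0.0161.
Spred2: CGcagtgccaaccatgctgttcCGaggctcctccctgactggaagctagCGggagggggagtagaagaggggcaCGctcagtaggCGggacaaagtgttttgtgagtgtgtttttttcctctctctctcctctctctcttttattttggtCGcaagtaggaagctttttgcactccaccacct
Fgf23: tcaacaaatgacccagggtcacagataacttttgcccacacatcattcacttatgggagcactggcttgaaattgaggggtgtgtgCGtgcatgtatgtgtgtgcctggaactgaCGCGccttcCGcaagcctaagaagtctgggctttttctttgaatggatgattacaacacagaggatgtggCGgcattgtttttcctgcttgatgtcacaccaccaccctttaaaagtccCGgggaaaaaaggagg

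Fgf5 (chr5:98253934-98254183, plus strand) and Kl (chr5:150952357-150952606, plus strand) are shown because they combined a CG-rich start with an intermediate level. They held 24 and 13 CG, numbers reached by 12.0% and 31.5% of windows.
Fgf5: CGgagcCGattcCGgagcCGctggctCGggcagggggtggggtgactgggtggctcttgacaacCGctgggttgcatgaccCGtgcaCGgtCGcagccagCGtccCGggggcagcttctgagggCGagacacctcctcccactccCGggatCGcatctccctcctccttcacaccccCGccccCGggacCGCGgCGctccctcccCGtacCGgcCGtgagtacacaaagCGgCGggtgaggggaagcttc
Kl: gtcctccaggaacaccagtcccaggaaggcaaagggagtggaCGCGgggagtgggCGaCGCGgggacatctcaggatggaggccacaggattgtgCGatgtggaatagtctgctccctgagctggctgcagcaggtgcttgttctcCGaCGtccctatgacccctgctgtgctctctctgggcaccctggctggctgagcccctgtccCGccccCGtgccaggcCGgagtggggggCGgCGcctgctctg

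The CpG island at chr13:118714301-118714513 (plus strand), upstream of the RefSeq start of Fgf10, is shown because its level was the same in each library as that listed for the Fgf10 promoter. It held 24 CG in 213 bases.
Fgf10: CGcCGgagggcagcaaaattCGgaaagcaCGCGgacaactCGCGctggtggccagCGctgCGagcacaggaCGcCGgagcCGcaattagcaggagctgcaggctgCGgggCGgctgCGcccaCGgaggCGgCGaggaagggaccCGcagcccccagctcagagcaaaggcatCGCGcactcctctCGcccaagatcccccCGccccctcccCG

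Most ligand genes had methylated 5′ UTRs, and the 5′ UTRs of the feedback genes were nearly free of methylation. The 5′ UTR level, averaged over the 4 libraries, was at least 0.1 in 14 of 17 ligands, in 4 of 7 genes of the receptor and klotho group and in none of 5 feedback genes, against 31.5% of all 11491 5′ UTRs. The 3 ligands below 0.1 were Fgf2, Fgf7 and Fgf20. The median 5′ UTR level was 0.329 in ligands, 0.167 in receptors and klotho and 0.0175 in feedback genes, beside 0.0273 over all genes. The 35 genes differed less from the rest at promoters, with a median of 0.202 against 0.180, and 20 of 29 were at 0.1 or above against 58.0% of all promoters. Their exon entries had a median of 0.350 against 0.353 and their introns of 0.357 against 0.414. The plot of levels by gene shows the 4 libraries of most genes close together, far closer than the genes are to each other. Between its highest and lowest library an entry differed by a median of 0.0328, beside 0.0309 over all entries, and 94 of 131 entries stayed within 0.05, or 71.8% against 71.9%.

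**Figure D1:**
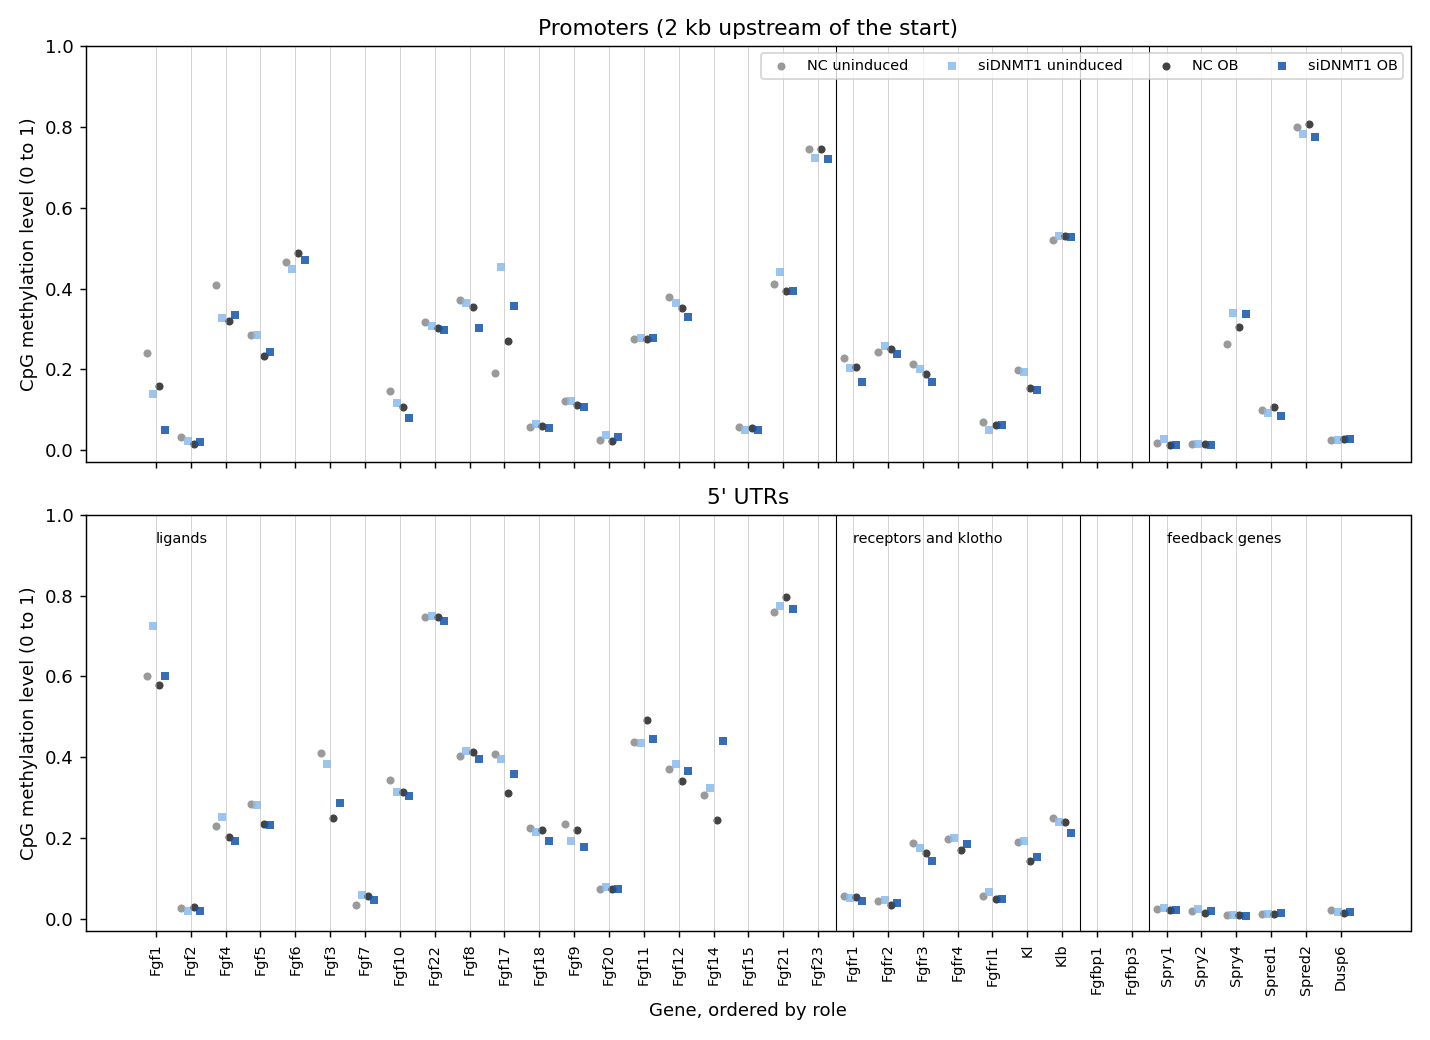
CpG methylation level (0 to 1, vertical axis) of the promoter (top) and 5′ UTR (bottom) of each FGF gene, ordered by role along the horizontal axis, with 1 point per library (grey and black circles for NC, light and dark blue squares for siDNMT1). Vertical lines separate ligands, receptors with klotho, binding proteins and feedback genes. The 5′ UTRs of feedback genes lie near 0, while those of 14 of 17 ligands lie at 0.1 or above.

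Among the ligands of the FGF1 subfamily, Fgf2, a growth factor for many mesenchymal cells, had a promoter at 0.0334, 0.0241, 0.0161 and 0.0205. Its 5′ UTR was similar, at 0.0271, 0.0195, 0.0289 and 0.0194. Fgf1, which binds every FGF receptor, had a promoter at 0.240, 0.138, 0.158 and 0.05 and a 5′ UTR at 0.600, 0.724, 0.579 and 0.600. The Fgf2 start was thus low in every library, while both Fgf1 entries differed by more than 0.1 between libraries.

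Fgf4 and Fgf5, ligands of the early embryo and of the hair cycle, were at intermediate levels. The Fgf5 promoter stood at 0.285, 0.284, 0.234 and 0.244 and its 5′ UTR at 0.284, 0.281, 0.235 and 0.232. Both entries were lower in the OB libraries, and siDNMT1 and NC were within 0.0101 of each other at the promoter. The Fgf4 promoter stood at 0.410, 0.328, 0.321 and 0.335, with NC uninduced above the other 3. Fgf6, expressed in muscle, was higher, with a promoter at 0.465, 0.449, 0.489 and 0.471.

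In the FGF7 and FGF8 subfamilies, which pattern limbs, lung and other organs, levels ran from nearly 0 to over 0.7. The 5′ UTR of Fgf7, a growth factor for epithelia, stood at 0.0351, 0.0592, 0.0564 and 0.0473, and that of Fgf22, known from synapses, at 0.746, 0.749, 0.746 and 0.736. Fgf10, needed for limb and lung buds, had a promoter at 0.147, 0.118, 0.107 and 0.0808 and a 5′ UTR at 0.343, 0.313, 0.315 and 0.303. In both Fgf10 entries siDNMT1 OB was lowest and NC uninduced highest. The Fgf8 promoter stood at 0.373, 0.364, 0.354 and 0.302, and that of Fgf18, a ligand for bone and cartilage growth, at 0.0564, 0.0647, 0.0597 and 0.0549. The Fgf18 start was the only ligand start in an island below 0.1 among the 8 ligand genes with an island across the RefSeq start.

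In the FGF9 subfamily, the promoter of Fgf9 was at 0.122, 0.121, 0.113 and 0.107 and that of Fgf20 at 0.0260, 0.0374, 0.0223 and 0.0337. The intracellular FGFs do not act through FGF receptors and bind sodium channels. The promoters of Fgf11 (0.275, 0.279, 0.275 and 0.277) and Fgf12 (0.380, 0.363, 0.352 and 0.331) were intermediate, and Fgf14 had no promoter entry. The endocrine ligands were far apart. Fgf15, the bile acid hormone of the gut, had a promoter at 0.0577, 0.0509, 0.0550 and 0.0492. Fgf21, a liver hormone, was at 0.411, 0.440, 0.393 and 0.393. Fgf23, the phosphate hormone of bone, stood at 0.745, 0.724, 0.745 and 0.721, the highest of the ligands.

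Among the receptors, Fgfr1, a receptor of mesenchymal cells, had a promoter at 0.228, 0.204, 0.207 and 0.168, with siDNMT1 OB lowest. Fgfr2 was at 0.243, 0.257, 0.250 and 0.238, and Fgfr3, which restrains growth plate cartilage, at 0.213, 0.202, 0.187 and 0.168. These 3 promoters lay close together and no library differed from another by 0.1. Fgfrl1, a receptor without a kinase domain, was lower, at 0.0711, 0.0502, 0.0615 and 0.0637. Fgfr4 had no promoter entry, and its 5′ UTR was at 0.198, 0.201, 0.170 and 0.184. The co-receptor of Fgf23, Kl, had a promoter at 0.198, 0.194, 0.154 and 0.148, lower in both OB libraries. Klb, the co-receptor of Fgf15 and Fgf21, was at 0.520, 0.530, 0.531 and 0.529, the highest promoter of this group. Of the binding proteins, Fgfbp3 had exons at 0.0160, 0.0162, 0.0123 and 0.0143.

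Of the feedback genes, Spry2 had the lowest promoter of all 29, at 0.0159, 0.0145, 0.0144 and 0.0126. The Spry2 sequence printed above is the part of it next to the start. Spry1 was at 0.0171, 0.0276, 0.0124 and 0.0128, Dusp6 at 0.0256, 0.0256, 0.0272 and 0.0274 and Spred1 at 0.0995, 0.0929, 0.106 and 0.0853. Spred2 stood apart, with the highest promoter of all 29 at 0.798, 0.781, 0.808 and 0.774. The Spry4 promoter was at 0.262, 0.339, 0.304 and 0.338, lowest in NC uninduced. Both genes nevertheless had a nearly unmethylated island across the start. That of Spred2, at chr11:19924380-19925902, stood at 0.0168, 0.0173, 0.0123 and 0.0161, and that of Spry4 at 0.0281, 0.0340, 0.0295 and 0.0249. All 6 feedback genes had such an island, with a mean level between 0.0127 and 0.0292. Of the 8 ligands with an island across the start 1 was below 0.1, and of the 5 receptor and klotho genes 2 were, Fgfr1 and Fgfrl1. Islands inside a gene near its start were not counted. Their mean was 0.0276 at Fgf2 and 0.0342 at Fgfr2 (chr7:130264992-130266512), but 0.103 at Fgf9, 0.312 at Fgf20 and 0.368 at Fgf17. Of all 14095 islands, at any position, 8690 had a mean below 0.1.

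Across ligands, receptors with klotho and feedback genes, CpG density ran in the opposite order to the 5′ UTR levels. Around the RefSeq start (500 bases), the ratio of observed to expected CpG had a median of 0.887 in feedback genes and 0.731 in receptors and klotho. It was 0.605 in ligands, beside 0.670 over 17762 genes. These medians include genes without a 5′ UTR level. Over the 11233 genes with such a level the median ratio was 0.748. Across 29 genes, the 5′ UTR level and this ratio had a Spearman rho of -0.467, and across all 11233 genes with values rho was -0.377. For promoters and the 2 kb upstream, rho was -0.4005 across 29 genes and -0.363 across 16916. For promoters and the 500 bases around the start, rho was weaker in the FGF genes, at -0.284 across 29 and -0.430 across all 16917. With the number of CpG in the 2 kb upstream, rho at promoters was -0.292 in the FGF genes and -0.289 over all. These correlations are across genes, which share the libraries and are not replicates. They describe a tendency of the same sign inside and outside the FGF genes. The plot of level against CpG content shows the exceptions. The 5′ UTR of Fgf3, an inner ear ligand, was at a mean of 0.333 with a ratio of 0.868, and that of Fgf8, an organiser of the early embryo, at 0.407 with 0.813.

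**Figure D2:**
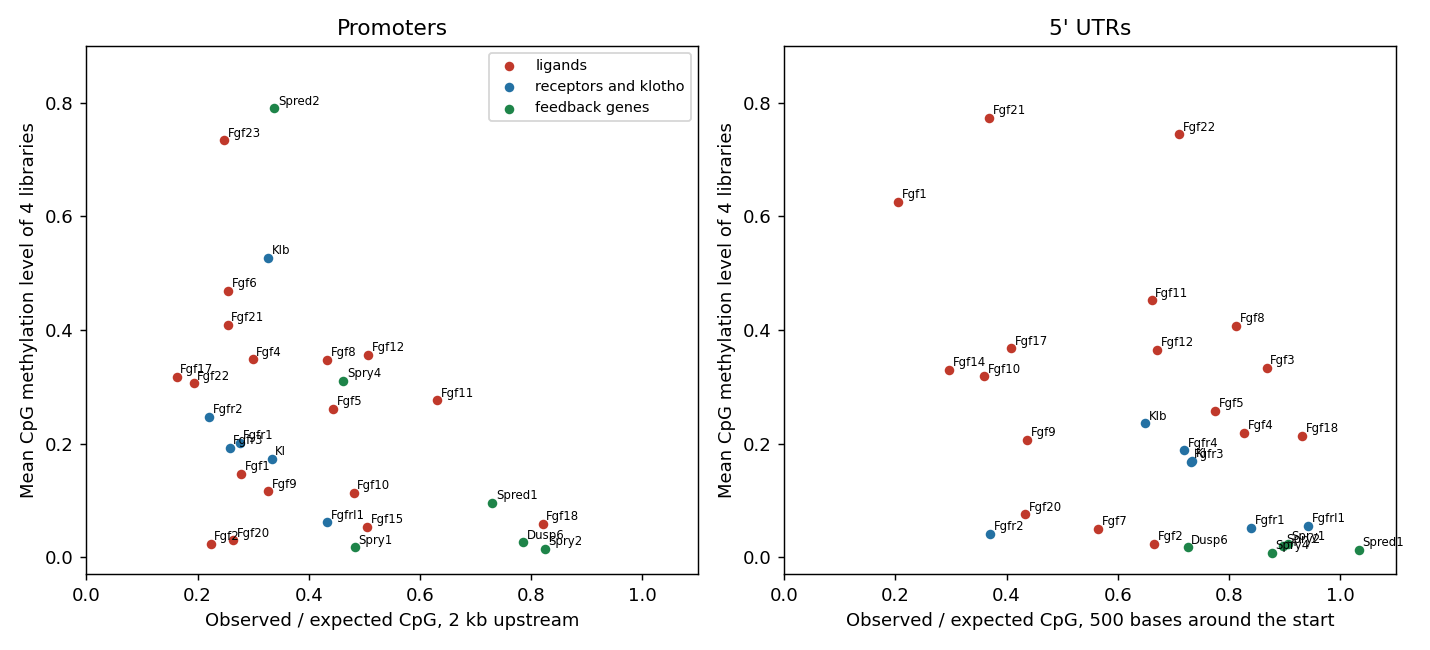
Mean methylation level over the 4 libraries (0 to 1, vertical axis) against observed over expected CpG (horizontal axis), for promoters and the 2 kb upstream and for 5′ UTRs and the 500 bases around the start. Each point is an FGF gene, coloured by role (ligands red, receptors and klotho blue, feedback genes green). Levels tended to be lower where CpG was denser, with a Spearman rho of -0.4005 at promoters and -0.467 at 5′ UTRs, each across 29 genes.

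The first question was how DNMT1 siRNA went with methylation in uninduced MSCs. Most FGF genes differed little between the siDNMT1 and NC libraries. The promoter of Fgf17, a ligand of the midbrain and cerebellum, was higher by 0.262 and the 5′ UTR of Fgf1 by 0.124. The 3′ UTR of Dusp6 was higher by 0.1 and the Fgf1 promoter was lower, with a difference of -0.102. These were the only changed entries: 1 of 131 fell, beside 0.852% of all 76155 entries, and 3 rose, beside 0.692%. Counts this small do not separate the FGF genes from the background. The median difference was -0.00662 at their promoters, beside -0.000713 at all promoters, and -0.00771 at their introns, beside -0.00436. With each library centred on its class median the promoter and intron medians were -0.00333 and -0.000973, and exons in place of introns gave 0.000746. Levels were lower at 67 of the 131 entries, or 51.1% against 55.9% of all entries.

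The Fgf17 promoter stood at 0.190, 0.452, 0.269 and 0.357. Both siDNMT1 libraries were thus above both NC libraries, at a depth that is unknown. Its 5′ UTR, at 0.407, 0.396, 0.312 and 0.357, did not share that order, and its exons had nearly the same 4 values. The island inside the gene at chr14:70641957-70642175, at 0.407, 0.397, 0.312 and 0.357, cannot be counted as a further measurement because it lies in the same stretch. After Fgf17, the Spry4 promoter was higher by 0.0765 with siDNMT1 in uninduced cells and the Fgf4 promoter differed by -0.0817, both below the threshold. Among introns the lowest difference was at Spred2, from 0.454 to 0.423, and the highest at Kl, from 0.677 to 0.691.

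In OB cells the second siDNMT1 comparison used the other 2 libraries. The Fgf1 promoter was again lower, from 0.158 to 0.05. The 5′ UTR of Fgf14, an intracellular FGF of neurons, was higher by 0.195, from 0.245 to 0.441, and the Dusp6 3′ UTR by 0.104, from 0.562 to 0.667. In all, 1 of 131 entries fell, beside 1.44% of all entries, and 2 rose, beside 0.725%. Levels were lower at 84 entries, or 64.1% against 66.8% of all. The median difference was -0.00539 at promoters and -0.0129 at introns, beside -0.00371 and -0.0131 over all genes. With each library centred on its class median, the promoter and intron medians turned to 0.00465 and 0.00350.

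Fgfr1 was lower with siDNMT1 at each of its promoter, exon and intron entries, and in both uninduced and OB cells. Its exons stood at 0.325, 0.287, 0.289 and 0.217 and its introns at 0.503, 0.480, 0.504 and 0.435. The intron difference in OB cells, -0.0692, was the lowest of the 27 FGF gene introns, and the highest was at Fgf20, from 0.233 to 0.264. The island across the Fgfr1 start (chr8:25518749-25519735) stood at 0.0186, 0.0197, 0.0178 and 0.0208 and did not share the order, nor did its 3′ UTR (0.899, 0.907, 0.900 and 0.901). None of these differences reached 0.1, and the exon, intron and promoter entries of a gene come from the same libraries. The order was not particular to Fgfr1. Fgfr3, Fgf9 and Fgf10 were also lower with siDNMT1 at promoter, exons and introns in both uninduced and OB cells. The island across the Fgfr3 start was lower too, by -0.0180 in uninduced and -0.0225 in OB cells. The share of all genes with this order was not counted.

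Across the pair of siDNMT1 comparisons, 48 of 131 entries were lower in both, or 36.6% beside 39.8% of all entries. A further 28 were higher in both, but the share of all entries higher in both was not counted. The plot of siDNMT1 differences shows that only the Fgf1 promoter fell by 0.1 in both, and only the Dusp6 3′ UTR rose by 0.1 in both. The shares of all entries that did so were not counted, so neither entry can be set against a background. With libraries centred on class medians no entry fell by 0.1 in either comparison, so that the call at the Fgf1 promoter was lost in both. The Dusp6 3′ UTR stood at 0.667, 0.767, 0.562 and 0.667, so that it was lower in OB than in uninduced cells with either siRNA and the level of siDNMT1 OB equalled that of NC uninduced.

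**Figure D3:**
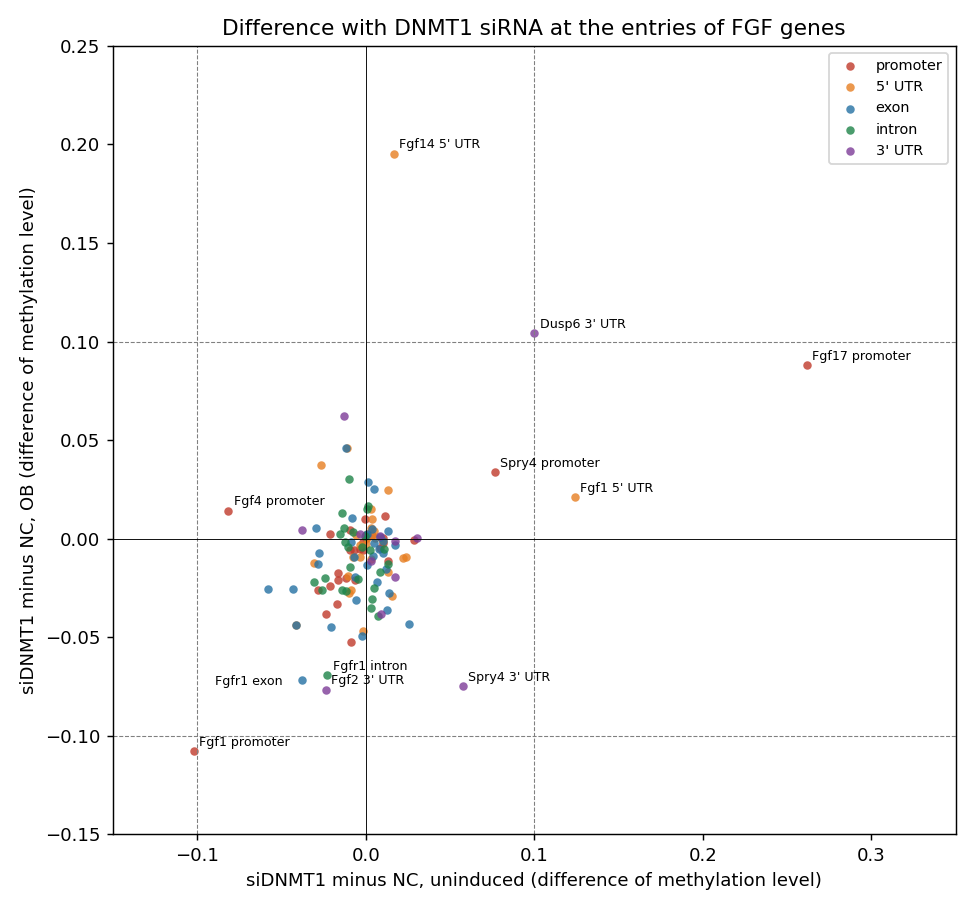
Difference in methylation level between siDNMT1 and NC in uninduced cells (horizontal axis) and in OB cells (vertical axis) for the 131 entries of FGF genes, coloured by class, with dashed lines at a difference of 0.1. Most points lie near 0, the Fgf1 promoter lies past -0.1 on both axes and the Dusp6 3′ UTR reaches 0.1 on both.

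The next question was how OB induction went with methylation. With NC siRNA, 2 of 131 entries fell, beside 1.33% of all entries, and none rose, beside 0.815%. The 5′ UTR of Fgf3 stood at 0.411 and 0.250 with NC and at 0.384 and 0.288 with siDNMT1, so that both OB libraries were below both uninduced libraries. The other entry that fell was the Dusp6 3′ UTR, with a difference of -0.104. At introns 23 of 27 FGF genes were lower in OB, or 85.2% against 60.3% of all introns, with a median difference of -0.0132 against -0.00430. With siDNMT1 20 of 27 were lower, or 74.1% against 71.9%. At introns the share above the background was thus seen with NC and hardly with siDNMT1, a contrast that was not tested. It did not hold over all 131 entries, where 67.2% were lower with NC against 61.7%, and 82.4% with siDNMT1 against 72.0%. The introns of 43 other FGF signalling genes, described last, were lower with NC in 37 of 41, or 90.2%. With siDNMT1 these were lower in 35 of 41, or 85.4%. Centring each library on its class median moved the NC intron median of the FGF genes to -0.00554. The lowest intron difference was at Fgf18, from 0.185 to 0.128, and the highest at Fgf1, from 0.5005 to 0.517. At promoters the median was -0.00464, beside -0.00320, and it turned to 0.0125 with each library centred on its class median. The promoter that differed most downwards was Fgf4, from 0.410 to 0.321, and the one most upwards was Fgf17, from 0.190 to 0.269.

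With siDNMT1, 2 of 131 entries fell between uninduced and OB cells, beside 2.42% of all entries, and 1 rose, beside 0.980%. The Fgf1 5′ UTR fell from 0.724 to 0.600 and the Dusp6 3′ UTR from 0.767 to 0.667, while the Fgf14 5′ UTR rose from 0.324 to 0.441. Levels were lower in OB at 108 entries, or 82.4% against 72.0% of all entries. The median was -0.00953 at promoters and -0.0180 at introns, beside -0.00654 and -0.0119. With centring the promoter median turned to 0.0143 and the intron median was -0.000693. The promoter of Fgf17 was lowest, from 0.452 to 0.357, and that of Fgf6 highest, from 0.449 to 0.471. Among introns Fgf23 was lowest, from 0.164 to 0.0830, and Fgf14 highest, from 0.569 to 0.587. The exons of Fgf23 stood at 0.145, 0.102, 0.0944 and 0.0689 and those of Kl at 0.462, 0.442, 0.405 and 0.3605. The library siDNMT1 OB was lowest at both, which does not set this pair apart. It was also lowest at the exons of Fgf8, Fgf9, Fgf10 and Fgfr1, among others. Over all genes the exon median was 0.361, 0.358, 0.348 and 0.334.

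Over the 4 comparisons, 6 entries of 5 genes changed in at least 1, beside 5.66% of all entries. The Fgf1 promoter was lower in each, by at least 0.08, with siDNMT1 and with OB. This was noticed, and the cut of 0.08 set, after its values were seen, the smallest difference being -0.0821. At that cut 3 of 20152 promoters, or 0.0149%, shared it. The share cannot say how rare the pattern is, because the cut followed the values of this gene. Promoters near 0 could not reach it either, and 42.0% of all promoters had a mean level below 0.1. The comparisons share libraries: each of the 4 libraries enters 1 siDNMT1 comparison and 1 OB comparison, so that they are not independent. The Fgf1 5′ UTR did not share this order, since its highest library was siDNMT1 uninduced.

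The siDNMT1 difference in OB cells was lower than that in uninduced cells by at least 0.1 at 3 of 131 entries, beside 2.20% of all, and higher at 1, beside 1.52%. The lower ones were the Fgf17 promoter (-0.174), the Spry4 3′ UTR (-0.132) and the Fgf1 5′ UTR (-0.103), and the higher one was the Fgf14 5′ UTR (0.179). Spry4, a Sprouty protein, had its 3′ UTR at 0.498, 0.555, 0.553 and 0.478. All 4 libraries enter each of these values.

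The CpG islands gave another view of OB induction. An island or shore (the 2 kb on either side of an island) was assigned to a gene that it overlapped, or whose 2 kb upstream it overlapped. At 28 of the FGF genes 37 islands had a level in every library, 14 with a mean below 0.1, 19 from 0.1 to 0.5 and 4 from 0.5. No island of an FGF gene changed by 0.1 in any of the 4 comparisons, beside 2.28% of all 14095 islands. With NC, 30 of 37 were lower in OB, or 81.1% against 71.4% of all islands. Among the 19 intermediate islands 18 were lower with NC, against 82.3% of 3313 such islands, and 19 with siDNMT1, against 87.3%. Their median difference was -0.0337 with NC and -0.0346 with siDNMT1, beside -0.0256 and -0.0328. The exception with NC was an island inside Fgf9 (chr14:58070942-58071337) at 0.0891, 0.118, 0.0958 and 0.107.

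The island of Kl at chr5:150952565-150953491 stood at 0.366, 0.346, 0.310 and 0.261. The island of Fgf5 at chr5:98253875-98254670, which contains the Fgf5 sequence printed above, stood at 0.317, 0.319, 0.267 and 0.267. In each, the OB libraries were below the uninduced ones. The island inside Fgf18 at chr11:33122878-33123337, far from the start, stood at 0.151, 0.162, 0.0897 and 0.0933, while the island across the Fgf18 start at chr11:33146777-33148198 stood at 0.0570, 0.0636, 0.0600 and 0.0548. Between siDNMT1 and NC the islands split more evenly, with 22 of 37 lower in uninduced and 19 of 37 lower in OB cells, or 59.5% and 51.4%, beside 46.2% and 58.5% of all islands.

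**Figure D4:**
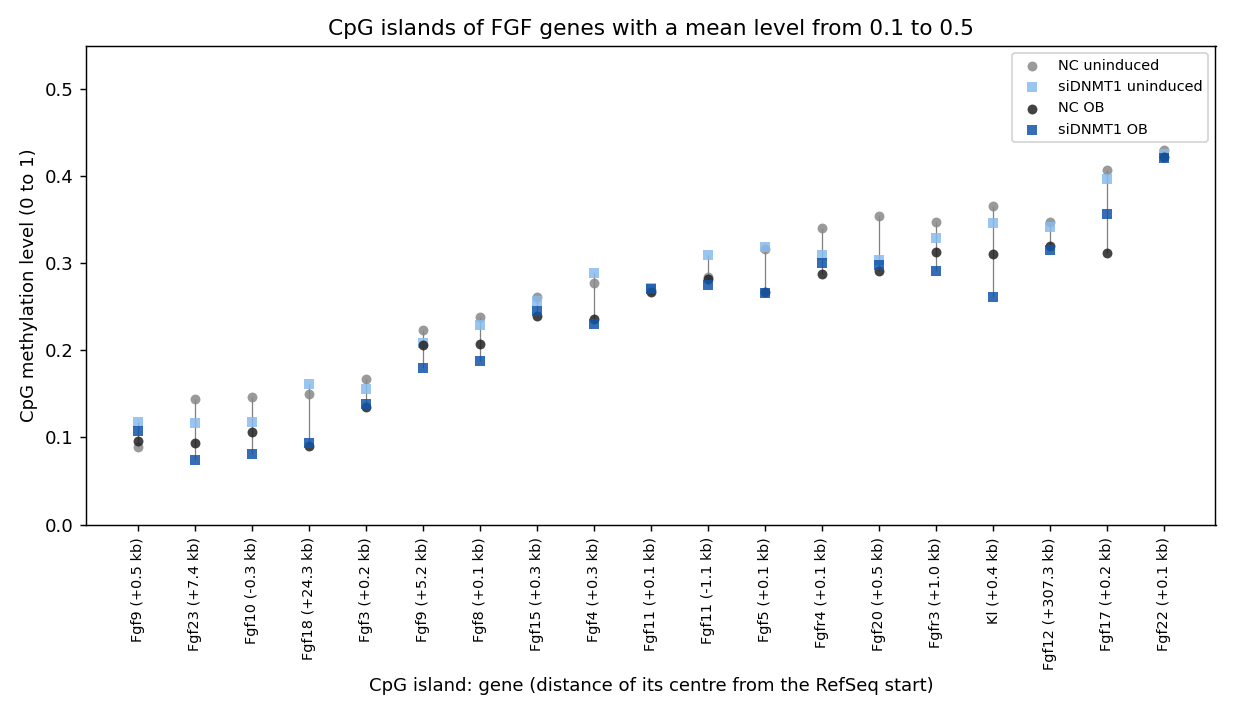
CpG methylation level (0 to 1, vertical axis) of the 19 islands of FGF genes with a mean level from 0.1 to 0.5, ordered by that mean and named by gene and distance of the centre from the RefSeq start in kb (horizontal axis). Points are the 4 libraries (grey and black circles for NC, light and dark blue squares for siDNMT1), and the OB level was below the uninduced level in 18 of 19 islands with NC and 19 of 19 with siDNMT1.

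The 50 shores at FGF genes held 3 that changed in any of the 4 comparisons, beside 7.45% of all shores. With OB in NC cells 1 fell, beside 2.01%. It lies inside Fgf12, an intracellular FGF, at chr16:28565094-28567094, and stood at 0.539, 0.5, 0.352 and 0.399, with both OB libraries below both uninduced ones. In siDNMT1 cells 3 of 50 shores fell with OB, beside 3.58%, the same Fgf12 shore and an overlapping pair with equal values at Fgf9, at 0.228, 0.304, 0.306 and 0.183. That pair also fell with siDNMT1 in OB cells, 2 of 50 beside 1.82%.

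The assignment of levels to a start has limits for some genes. The start used for the deposited promoters is not given in the sources used here, and the RefSeq and GENCODE starts lie more than 400 bases apart in 9 of the genes. They were 44908 bases apart at Fgf10, 21378 at Fgf20, 14019 at Fgf4, 5105 at Fgfr1 and 2856542 at Fgfr2. The Fgf10 promoter had the level of the island just upstream of the RefSeq start in each library, so this entry appears to follow the RefSeq start. The Fgf20 promoter, at 0.0223 to 0.0374, contrasts with the island inside the gene near its RefSeq start (chr8:40286383-40286604), at 0.355, 0.304, 0.292 and 0.298. Some entries also repeat the same values: the Fgf10 exons equal a shore at chr13:118714514-118716514, the Klb 3′ UTR equals a shore at chr5:65377604-65379603, and the 5′ UTRs of Fgf9 and Fgfrl1 equal their exons.

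A further 43 genes of FGF signalling, among them adaptors, RAS and MAP kinase genes, Etv transcription factors and heparan sulphate enzymes, all had entries in the 4 libraries. Their 5′ UTRs resembled those of the feedback genes, with a median of 0.0185 and 2 of 39 at 0.1 or above. Of their 176 entries 3 changed by 0.1 in at least 1 of the 4 comparisons, beside 5.66% of all entries. The exons of Sos1, which activates RAS, stood at 0.124, 0.0174, 0.139 and 0.151, with siDNMT1 uninduced far below the rest. The exons of its relative Sos2 stood at 0.457, 0.446, 0.334 and 0.316, lower in both OB libraries. The 3′ UTR of Flrt3, a membrane protein that binds FGF receptors, stood at 0.407, 0.418, 0.508 and 0.636, higher in both OB libraries.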

How the data were processed

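Methylation was measured in 4 libraries of C3H10T1/2 cells, 1 per group, grouped by the sample labels. The authors named the assay RRBS, while the labels describe sonication and name no digestion enzyme. Per the labels, reads were handled with CASAVA, trimmed with Trimmomatic (0.36) and aligned to mm10 with Bismark (0.16.3). The authors deposited, per region, the fraction of methylated CpG (the methylation level, 0 to 1). Their DMRs were not analysed here. Coverage minimum and weighting of cytosines are not given in the sources used here, so depth per library and region is unknown and no interval or test was computed.

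Differences were taken between levels over entries listed in all 4 libraries, as siDNMT1 minus NC and OB minus uninduced, and counted as changed from 0.1. Symbols came from GENCODE vM21, starts and sequences from RefSeq, both on GRCm38. All 14091 islands on chromosomes start and end with CG there, once starts are counted from 0. The genes and lists were chosen with earlier results of these data known. Named with values were each changed entry, the promoters of receptors, klotho and feedback genes, the highest and lowest promoter, and the promoter and intron that differed most in each direction. The other levels printed were chosen after they were seen. The counting code was run on simulated levels of a fixed depth with planted falls. As the depth of the real levels is unknown, that run cannot say which changes of 0.1 are sound. Alternatives covered the threshold (0.05, 0.2), centring, a minimum level of 0.1, a log2 odds scale (0.01 added), introns against exons, and entries listed in the compared libraries. Python 3.11.15, pandas 2.3.3, numpy 2.4.6, matplotlib 3.10.9 and pysam 0.24.0 were used.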

Additional observations from a re-analysis of the deposited data

Results flagged for a closer look

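At 3 regions the difference between siDNMT1 and NC had opposite directions in uninduced and OB cells, with a gap of at least 0.1. With 1 library per group the gap itself was not tested, and the share of all regions that meet this rule is not given. The 3′ UTR of Spry4, a feedback inhibitor, stood in uninduced cells at 0.498 (NC) and 0.555 (siDNMT1) and in OB cells at 0.553 and 0.478, a gap of -0.132. The shore inside Fgf9 at chr14:58072433-58074433 stood at 0.228 and 0.304 in uninduced cells and at 0.306 and 0.183 in OB cells, a gap of -0.199. The shore at chr14:58072858-58074857 overlaps it and holds the same 4 values and gap, so that both are a single measurement.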

How the results depend on the processing

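No paired analysis was possible because each group has 1 library, without replicate numbers, and for the same reason no replicate could be left out. Counts below are entries of FGF genes that fell and rose, in the order siDNMT1 uninduced, siDNMT1 OB, OB with NC, OB with siDNMT1 and the difference between the siDNMT1 differences. At 0.1 they were 1 and 3, 1 and 2, 2 and 0, 2 and 1, and 3 and 1. At 0.05 they were 3 and 5, 6 and 4, 12 and 3, 18 and 1, and 5 and 6. Shares over all entries are given here only for 0.1, so counts at other settings cannot set the FGF genes apart from the background. At 0.2 they were 0 and 1, and then 0 and 0 in the other 4. On the log2 odds scale with a change of 0.5, 3 fell and 6 rose, 4 fell with siDNMT1 in OB, 9 fell and 2 rose, 10 fell, and 7 fell and 5 rose. With libraries centred on class medians, none fell in either siDNMT1 comparison (0 and 0), 1 fell with OB in siDNMT1 cells and 2 rose in the difference of differences. Centring also moved the promoter medians to 0.00465 (siDNMT1 in OB), 0.0125 (OB with NC), 0.0143 (OB with siDNMT1) and 0.00256 (difference of differences, from -0.00419), and the intron medians to 0.00350 (siDNMT1 in OB) and -0.000693 (OB with siDNMT1). Limiting islands to mean levels from 0.1 to 0.5, an alternative chosen after seeing the data, moved their median from -0.00224 to -0.00949 (siDNMT1 uninduced), from -0.0138 to -0.0337 (OB with NC) and from -0.0101 to -0.0346 (OB with siDNMT1). The causes were not tested. The other 43 values were counts within 1.5 times of those reported, or medians, some of which still turned sign or moved severalfold. For introns, centring gave -0.000973 and exons gave 0.000746 in place of -0.00771 (siDNMT1 uninduced), centring gave -0.00554 and exons -0.00556 in place of -0.0132 (OB with NC), and centring gave 0.00766 and exons -0.00842 in place of -0.00195 (difference of differences). Leaving out promoters with a mean under 0.1 gave lower medians in each, as far as -0.0256 in place of -0.00953 (OB with siDNMT1). Unknown depth limits each single level.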
